A study of Mus musculus with 12 samples.

Results

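Inguinal white adipose tissue (iWAT) of adipocyte-specific *Atf4* knockout mice was compared with iWAT of control mice after 24 h of cold exposure. Every gene whose normalized counts averaged 10 or more across all 12 libraries was included, which gave 13404 of the 14159 listed genes. The genes that followed lymphocyte genes across the libraries were described apart from those that did not. The comparison rests on 6 of the 12 libraries, namely 3 cold-exposed Atf4AKO and 3 cold-exposed Atf4WT libraries. The other 6, from both genotypes at room temperature (RT), gave the values set beside them. Atf4AKO mice carry floxed *Atf4* alleles and Cre recombinase driven by the *Adipoq* promoter, which is active in adipocytes. Atf4WT mice were floxed littermates, so both genotypes carry the floxed alleles, and all mice were on a C57BL/6 background. Other cells of the fat pad keep *Atf4* by this design. The age of these mice is not given in the sources used here. Polyadenylated RNA of whole tissue was sequenced, so fewer cells of a type and less RNA per cell cannot be told apart.

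ATF4 is a transcription factor of the integrated stress response (ISR). Phosphorylation of the initiation factor eIF2α slows general translation and favours translation of ATF4. ATF4 then raises genes for amino acid synthesis and uptake, for the loading of tRNAs, for mitochondrial folate enzymes and for feedback on the stress response. It pairs with C/EBP proteins on composite DNA elements. iWAT is a subcutaneous white depot in which cold exposure brings out thermogenic beige adipocytes, and the pad also holds an inguinal lymph node with its B and T cells.

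Short stretches of promoters that hold such a composite element are shown for ATF4-related genes, because these genes are the ones in which a response to the loss of ATF4 is commonly looked for. The letters TGATGNAA were searched on both strands in the RefSeq promoter windows of GRCm38.p6, from 250 bases before to 50 bases after the gene start. The capitals mark the match, and each stretch runs 5′ to 3′ on the strand of its gene. *Trib3* (chr2:152344028-152344057, minus strand) encodes a pseudokinase that acts back on ATF4, *Slc1a4* (chr11:20332699-20332728, minus strand) a neutral amino acid transporter and *Asns* (chr6:7693214-7693243, minus strand) asparagine synthetase. *Yars* (chr4:129189895-129189924, plus strand) and *Tars* (chr15:11399655-11399684, minus strand) encode tRNA synthetases for tyrosine and threonine.
Trib3: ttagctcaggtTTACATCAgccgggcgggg
Slc1a4: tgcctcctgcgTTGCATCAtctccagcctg
Asns: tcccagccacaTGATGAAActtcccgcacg
Yars: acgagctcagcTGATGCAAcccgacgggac
Tars: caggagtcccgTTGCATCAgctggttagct
The match lay 23 bases before the gene start in *Asns* and began 14 bases after it in *Trib3*. Of the 73 tested members of 5 ATF4-related lists, 55 had a window, and 17 of these windows (30.9%) held the letters. Of all 32851 windows, 3.97% held them, as did 2.79% of the 10662 tested genes with a window. Windows of *Mthfd2*, *Mthfd1l*, *Shmt2*, *Atf5*, *Aldh18a1* and *Slc7a1* did not hold these letters, and *Slc7a5*, *Cars* and *Vars* had no window in the promoter table used. An exact string in a short window can miss other ATF4 sites. The study searched a wider region by another method and reported ATF4 enrichment at *Mthfd2*. Its chromatin immunoprecipitation in differentiated white adipocytes found ATF4 at the *Mthfd2* promoter.

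The libraries held 25719476 to 29105147 reads on listed genes. Within each group the replicates were further apart than counting error allows. In Atf4WT RT replicate 2 the B cell markers summed to 4914 normalized counts, against 174 and 223 in the other Atf4WT RT libraries, so this library stood apart in lymphocyte genes. It stood apart in skeletal muscle markers too, with a sum of 86317 against 2440 and 1765. As the tissue label requires, adipocyte genes were abundant, and *Adipoq*, which encodes adiponectin, had 55500 to 85395 normalized counts in the 6 cold libraries. Just inside the limit on the mean were *Ccdc136* (10.01) and *Abcc8* (10.03), and just outside it were *Tulp2* (9.99) and *Ccl4* (9.98).

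*Atf4* (NM_009716), on chromosome 15 from 80255184 to 80257541 of mm10, was the first gene examined, since its loss defines the genotype. After cold exposure it had 7644, 7511 and 5756 normalized counts in Atf4WT replicates 0, 1 and 2, and 1578, 788 and 1180 in the Atf4AKO replicates. The groups did not overlap. The log2 fold change of Atf4AKO against Atf4WT was −2.60 (SE, the standard error, 0.22, and limma-adjusted p = 0.000644 over 13404 genes). At RT it was −1.61 (limma-adjusted p = 0.0762), and the difference between the cold and RT values had a limma-adjusted p = 0.478. Over the alternatives, the cold value ranged from −2.84 to −2.34 and its adjusted p from 2.96e-27 to 0.239.

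*Rps19bp1* and *Cacna1i* lie close to *Atf4* on chromosome 15, and *Rps19bp1* was lower and *Cacna1i* higher in Atf4AKO iWAT. *Rps19bp1* (80260615 to 80264315, minus strand) encodes a ribosomal protein S19 binding protein and its nearest end lies 3074 bases beyond that of *Atf4*. It had 863, 714 and 613 normalized counts in cold Atf4WT and 141, 102 and 82.7 in cold Atf4AKO iWAT, a log2 fold change of −2.76 (SE 0.20, limma-adjusted p = 0.000308). At RT the log2 fold change was −2.38 (limma-adjusted p = 0.00141), so the gene was lower in both conditions. *Cacna1i* (80287238 to 80398279, plus strand), a T-type calcium channel gene 29697 bases away, had 84.2, 215 and 268 normalized counts in cold Atf4WT and 2900, 3477 and 2755 in cold Atf4AKO iWAT. Its log2 fold change was 4.15 (SE 1.02, limma-adjusted p = 0.0842). At RT it had 0.919 to 78.8 normalized counts in Atf4WT and 1224 to 1701 in Atf4AKO iWAT. Both genes thus differed in the same direction in cold and at RT.

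Across all tested genes, 810 were lower in cold-exposed Atf4AKO iWAT (6.04% of 13404) and 48 were higher (0.358%). The threshold was a fold change over 1.5 and an unadjusted limma p under 0.05. With an adjusted p under 0.05 only 4 genes passed (0.0298%), namely *Rps19bp1*, *Atf4*, *Atf5* and *Dnase1l3*, all lower. By this rule edgeR gave 3 genes and DESeq2, the test the study used, 590. At RT the threshold on fold change and unadjusted p gave 38 lower (0.283%) and 24 higher genes (0.179%), 62 in all, in place of which edgeR gave 138 and DESeq2 101. The median log2 fold change over all genes was 0.05 after cold and 0.01 at RT, values that the scaling of the libraries holds near 0. Without Atf4WT cold replicate 2 the lower genes were 539, and the higher genes were 90 without Atf4WT cold replicate 0 and 110 without Atf4AKO cold replicate 1.

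The genes that were lower by the widest margin were those of lymphocytes. All 15 tested B cell markers and all 16 tested T cell markers passed the threshold in the lower direction, with median log2 fold changes of −5.70 and −3.50. *Cd79a*, a part of the B cell receptor, had 723, 1792 and 2667 normalized counts in cold Atf4WT and 55.3, 20.4 and 14.0 in cold Atf4AKO iWAT (log2 fold change −5.85, limma-adjusted p = 0.0667). *Lck*, the kinase that starts T cell receptor signalling, had 226, 1215 and 1438 against 136, 51.0 and 72.0 (log2 fold change −3.19, limma-adjusted p = 0.0714). In neither gene did the cold groups overlap. At RT *Cd79a* had 13.5 to 772 normalized counts in Atf4WT and 17.9 to 75.3 in Atf4AKO iWAT, and none of the 31 markers passed the threshold.

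A lymphocyte score, the mean log2(normalized count + 1) of the 31 markers in a library, summarized these genes. It was 6.95, 8.92 and 9.42 in cold Atf4WT and 4.83, 3.36 and 3.85 in cold Atf4AKO iWAT. The B cell markers summed to 4758 to 17072 normalized counts in cold Atf4WT and 111 to 440.1 in cold Atf4AKO libraries, and the T cell markers to 1323 to 9752 and 310 to 712. The 15 B and 16 T cell markers in the table all had reads in every library, as did every gene listed there. The sum of 4914 in Atf4WT RT replicate 2 lay above that of cold Atf4WT replicate 0. The difference in the score of −4.42 had p = 0.1 in a two-sided exact permutation test, the smallest p that 3 libraries against 3 allow. At RT the score was 3.70 to 6.88 in Atf4WT and 3.93 to 5.11 in Atf4AKO libraries. The cold Atf4AKO libraries therefore lay within or just below the range at RT. The cold Atf4WT libraries lay above all 6 RT libraries, replicate 0 only narrowly.

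**Figure D1:**
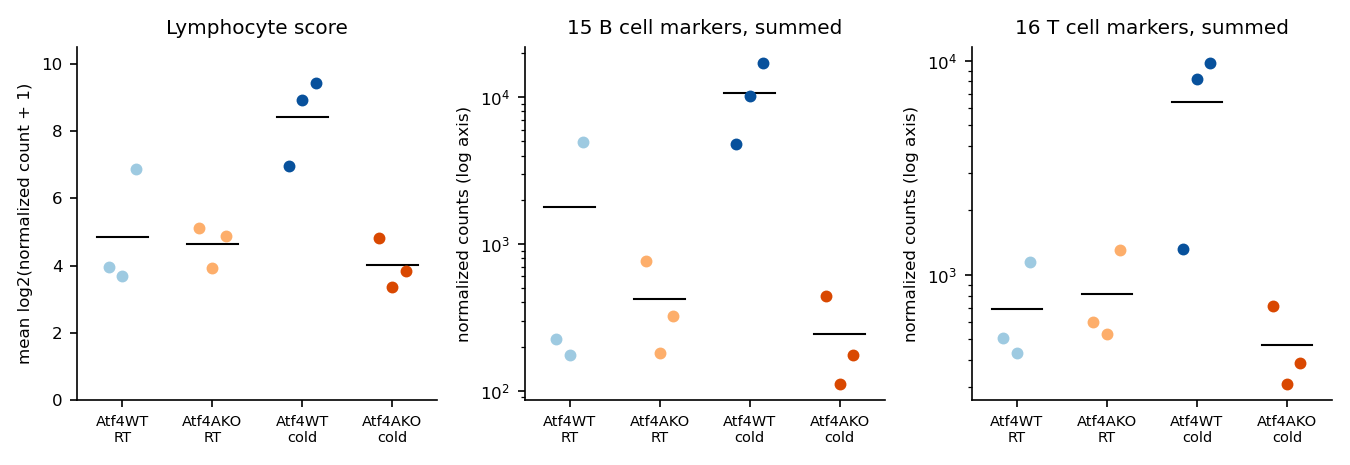
Lymphocyte score (left), summed B cell markers (middle) and summed T cell markers (right) in each of the 12 libraries, with points for replicates 0, 1 and 2 from left to right and a line at the group mean. The 3 cold Atf4WT libraries lie above the 3 cold Atf4AKO libraries in each panel, and Atf4WT RT replicate 2 lies close to Atf4WT cold replicate 0 in the score and the B cell markers.

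Each of the other tested genes was placed by the Pearson correlation (r) of its log2 value with this score over the 12 libraries. There were 519 genes that followed the score (r of at least 0.8), 81 that mirrored it (r of −0.8 or less), 2861 in between and 9912 unrelated to it (r under 0.5 in size). These correlations contain the contrast itself, since the score differs between the cold groups, and the libraries share it. The counts by class are thus descriptions. Of the genes that followed the score, 471 were lower and 0 higher. Of those in between, 251 were lower and 23 higher, and of the unrelated genes 57 were lower and 16 higher. The mirroring genes gave 9 higher and 0 lower genes. At the limit of 0.8, *Syk* (r = 0.801, log2 fold change −1.35) fell just inside and *Susd2* (r = 0.799, log2 fold change −1.20) just outside.

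The placement depended on how it was made. When r was computed from the deviations of each library from its group mean, which leaves the contrast out, 277 genes followed the score, and 218 of them were lower. Of the 519 genes placed over the 12 libraries, 216 followed the score in this way too, 287 were in between and 16 unrelated. When r was computed over the 6 RT libraries, 720 genes followed the score and 242 of these were lower. In that placement 225 lower genes were unrelated to the score, against 57 over the 12 libraries. The number of lower genes that did not follow the score was thus 308 over the 12 libraries, 561 by deviations and 532 at RT, with 5 lower genes that mirrored the score at RT left aside.

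**Figure D2:**
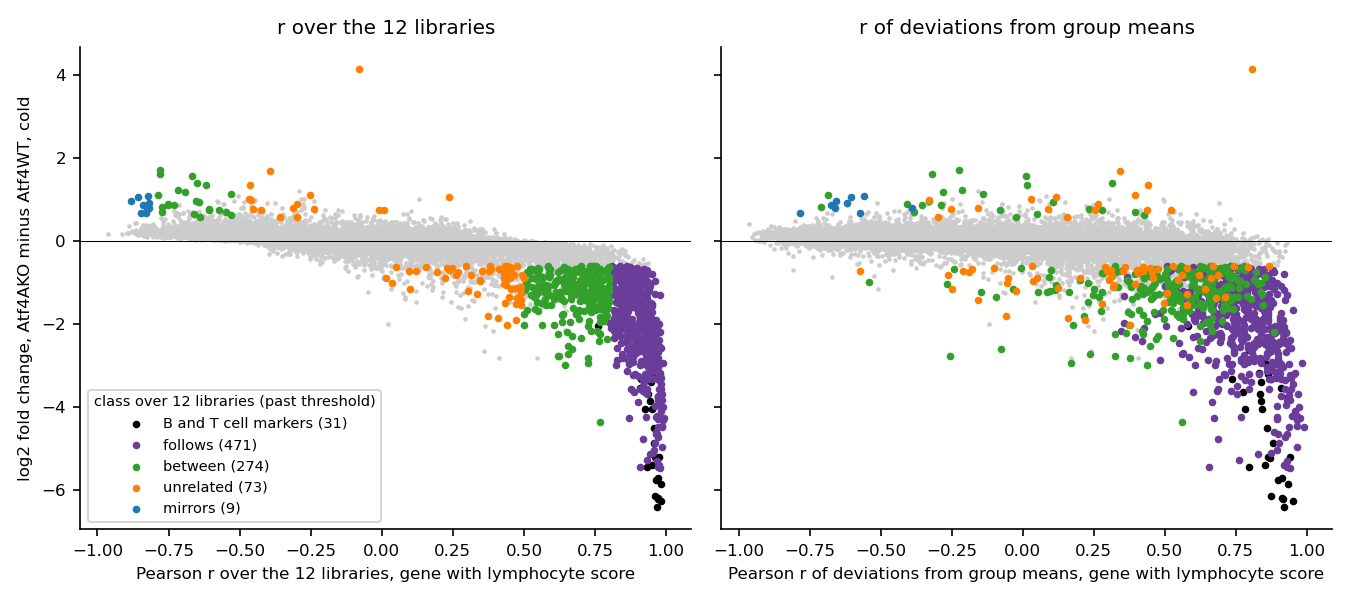
Log2 fold change after cold (Atf4AKO minus Atf4WT, y axis) of each tested gene against its Pearson r with the lymphocyte score, over the 12 libraries (left) and over deviations from the group means (right), with genes that did not pass the threshold in grey. The 471 lower genes that follow the score on the left spread towards lower r on the right, and *Cacna1i* is the single point above 4.

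The 471 lower genes that followed the score took between 0.442% and 1.21% of the reads of each cold Atf4WT library and between 0.197% and 0.332% in cold Atf4AKO libraries. At RT they took 0.263% to 0.497% in Atf4WT and 0.260% to 0.406% in Atf4AKO libraries. Their median log2 fold change was −1.89 after cold and −0.03 at RT. At RT 253 had a negative value, and 0 passed the threshold in either direction. For 366 of them the difference between the cold and RT values had p under 0.05 before adjustment, but no tested gene had an adjusted p under 0.05 for this difference (928 had an unadjusted p under 0.05). In 200 of the 471 (42.5%) all 3 cold Atf4WT libraries lay above the other 9 libraries, against 370 of all 13404 genes (2.76%). The score was highest in those 3 libraries, so placing genes by it and calling them lower favours this pattern. The share is thus a description. The part of lymphocyte number in the differences of these genes was not tested.

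*Dnase1l3*, a secreted DNase made by dendritic cells and macrophages, had the smallest p of the genes that followed the score. It had 112, 404 and 680 normalized counts in cold Atf4WT and 12.8, 18.1 and 16.1 in cold Atf4AKO iWAT. The groups did not overlap, and the cold Atf4AKO libraries also lay below the 6 RT libraries, which had 41.4 to 116. The log2 fold change was −4.25 (SE 0.57, limma-adjusted p = 0.0389), while at RT it was 0.26 (limma-adjusted p = 1.00). Over the alternatives its adjusted p ranged from 5.40e-12 to 1.00. *Gpr18*, a receptor of lymphocytes, was lower with a log2 fold change of −5.02, and the T cell costimulator *Icos* with −3.60. *Ralgps2* (−2.60), *Nxpe3* (−2.80), *Aff3* (−1.80) and the carnosine synthase gene *Carns1* (−1.17) completed the named genes of this class beside *Mthfd2*. The naming rule required cold groups that did not overlap, which held for 16.5% of all tested genes.

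Several other immune genes were lower too, some of which followed the score and some of which did not. Of 8 dendritic cell markers, 3 were lower, namely *Ccr7* (−5.26), the homing receptor to lymph nodes, *Siglech* (−2.56) and *Flt3* (−2.42), and the median over the 8 was −0.96. Of 8 NK cell markers *Prf1* (−1.71), *Eomes* (−1.52) and *Nkg7* (−1.44) were lower, with a median of −0.82. Of these 8 markers 0 followed the score, and at RT all 8 had positive values, with a median of 0.94. *Nkg7* overlapped between the cold groups, and its call was lost under 5 of 17 alternatives and its sign changed under 1. All 3 tested genes of lymph node stroma and vessels were lower, namely *Cxcl13* (−2.10), the chemokine that draws B cells to follicles, *Fut7* (−2.19) and *Madcam1* (−1.77). *Cxcl13* had 663, 491 and 1494 normalized counts in cold Atf4WT and 209, 72.6 and 401 in cold Atf4AKO iWAT, without overlap. Of 5 plasma cell markers, *Jchain* alone passed the threshold (−2.52). It had 83.2, 17.9 and 399 normalized counts in cold Atf4WT and 8.50, 22.7 and 14.0 in cold Atf4AKO iWAT, with overlap, and the call was lost under 5 of 17 alternatives, with −1.41 without Atf4WT cold replicate 2. The cytokine gene *Tnf*, which followed the score (r = 0.94), had 28.8, 91.8 and 103 normalized counts against 20.2, 13.6 and 11.8 (log2 fold change −2.06, limma-adjusted p = 0.241). Without Atf4WT cold replicate 1 or 2 *Tnf* no longer passed.

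The markers of macrophages did not move in this way. Of 11 tested macrophage markers 0 passed the threshold in either direction, with a median log2 fold change of −0.11 and values between −0.59 and 0.20. *Adgre1*, which encodes F4/80, had 606, 153 and 655 normalized counts in cold Atf4WT and 945, 120 and 752 in cold Atf4AKO iWAT, so the spread within each group exceeded the difference between them. Of 6 markers of neutrophils and mast cells and of 9 endothelial and 9 fibroblast and progenitor markers, 0 passed either. Skeletal muscle markers had a median of −1.78 after cold and −2.58 at RT, but none of the 6 passed, as their sums ranged from 1489 to 31790 normalized counts within cold Atf4WT alone. At RT they summed to 86317 in Atf4WT replicate 2, against 1765 and 2440 in the other Atf4WT libraries. In Atf4AKO RT libraries the sums were 1616 to 1721, so the RT difference rests on that Atf4WT library.

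MHC class II genes, which present antigens to T helper cells, were lower in cold-exposed Atf4AKO iWAT. This list was drawn up after its values were seen. All 9 tested members passed the threshold, with a median log2 fold change of −1.38. *H2-Eb1*, a chain of the class II molecule, had 3754, 4973 and 7316 normalized counts in cold Atf4WT and 2630, 1379 and 2151 in cold Atf4AKO iWAT. At RT it had 4347 to 5937 in Atf4WT and 4991 to 7080 in Atf4AKO iWAT. The cold Atf4AKO libraries thus lay below all other 9 libraries, while the cold Atf4WT libraries lay around the RT values. The log2 fold change was −1.38 after cold (SE 0.27, limma-adjusted p = 0.0648) and 0.12 at RT, and the difference between them had a limma-adjusted p = 0.474. The invariant chain gene *Cd74* had 10137, 14594 and 21963 against 6561, 2841 and 5895 normalized counts, with a log2 fold change of −1.63. *H2-Aa* and *H2-Ab1*, which encode further chains, had −1.35 and −1.34. In 6 of the 9 genes the cold Atf4AKO libraries lay below the other 9. *H2-Oa* (−4.59) and *Ciita* (−2.22), a chaperone chain of B cells and the class II transactivator, followed the score, whereas *H2-Eb1* had r = 0.48 with it. Its r over deviations was 0.68, so the lymphocyte score moved with it within groups.

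This rank pattern was counted for all lower genes. Among the 308 lower genes that were in between or unrelated, the cold Atf4AKO libraries lay below the other 9 in 75 (24.4%), and the cold Atf4WT libraries lay above the other 9 in 24 (7.79%). Among the 471 that followed the score these counts were 19 (4.03%) and 200 (42.5%), and among all tested genes 212 (1.58%) and 370 (2.76%). Placing genes by r with a score that was highest in the cold Atf4WT libraries favours such a difference between the classes. These shares are thus descriptions. Genes with the first pattern included *Relb* (−1.11) and *Nfkb2* (−0.95), subunits of the noncanonical NF-κB pathway, *Bcl2* (−0.81), a survival gene, and *Tnfsf13b* (−0.71), which encodes the B cell survival factor BAFF. *Tnfsf13b* had 71.9, 64.4 and 112 normalized counts in cold Atf4WT, 59.5, 37.4 and 51.6 in cold Atf4AKO and 87.6 to 141 at RT. These 4 genes were picked after their values were seen. Their r over deviations was 0.71 for *Relb*, 0.76 for *Nfkb2*, 0.62 for *Bcl2* and 0.35 for *Tnfsf13b*. None of the 4 passed the threshold with the lymphocyte score as a covariate, a fit in which their standard errors were wider. The call of *Tnfsf13b* was lost under 5 of 17 alternatives.

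The named lower genes that were in between or unrelated were *Atf4*, *Rps19bp1* and *Atf5*, the MHC class II genes *H2-Eb1* and *Cd74*, and 7 more. *Pla2g2d* (−2.29), a secreted phospholipase, had 199, 363 and 823 normalized counts in cold Atf4WT and 64.8, 64.6 and 118 in cold Atf4AKO iWAT. *Hhex* (−1.21), a homeobox transcription factor gene, had 189, 214 and 296 against 94.6, 99.8 and 99.9, and its r over deviations was 0.05. *Il2ra* (−1.59), the α chain of the interleukin 2 receptor, had 90.4, 146 and 236 against 57.4, 32.9 and 58.0. The urea transporter gene *Slc14a1* (−2.16), *Tor4a* (−1.03), *Tmsb10* (−1.11), which encodes an actin-binding thymosin, and *Plekha2* (−0.59) were lower as well. None of these 7 passed the threshold at RT. Apart from *Hhex*, their r over deviations lay between 0.48 (*Pla2g2d*) and 0.74 (*Plekha2*). With the lymphocyte score as a covariate, *Hhex* alone of the 7 passed the threshold. Its standard error was 0.47 in that fit against 0.24 without the score, and those of the others widened too. Whether the lost calls reflect the score or this loss of precision was not tested. Of all 308 genes, 131 had a negative value at RT.

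*Atf5*, which encodes a related stress transcription factor and is a known target of ATF4, was lower in both conditions. After cold it had 10742, 10729 and 8372 normalized counts in Atf4WT and 4447, 5739 and 4982 in Atf4AKO iWAT, a log2 fold change of −0.97 (SE 0.12, limma-adjusted p = 0.0156). At RT it had 4295 to 4636 against 2679 to 3001, a log2 fold change of −0.68 (limma-adjusted p = 0.344). The groups overlapped in neither condition, and the cold Atf4AKO libraries lay within or above the range of Atf4WT at RT. The difference between the cold and RT values had a limma-adjusted p = 0.846. Over the alternatives the adjusted p after cold ranged from 1.03e-11 to 0.239.

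Most listed targets of ATF4, with *Atf5* counted among them, did not pass the threshold. In the 5 ATF4-related lists together, 8 of 73 tested members were lower and 0 higher, with a median log2 fold change of −0.03 beside 0.05 for all genes. Over all genes 6.04% were lower by the same threshold. An unadjusted p under 0.05 at any fold was found for 16 lower members and 1 higher member, and over all genes 7.98% were lower by this rule. Of 17 stress and feedback targets, *Atf5* and *Trib3* (−0.82, limma-adjusted p = 0.401) were lower. *Trib3* had 306, 419 and 195 normalized counts in cold Atf4WT and 114, 269 and 146 in cold Atf4AKO iWAT, so its groups overlapped, and its call was lost under 8 of 17 alternatives. *Ddit3*, which encodes the stress factor CHOP, had 1124, 979 and 818 against 790, 1317 and 752 (log2 fold change −0.07, limma-adjusted p = 0.924). The hormone gene *Fgf21* had 44.2, 76.0 and 21.7 against 14.9, 31.7 and 24.7 (log2 fold change −0.85, limma-adjusted p = 0.593). *Chac1* (−0.41) and *Nupr1* (−0.06) did not pass.

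Among 12 folate and one-carbon genes, 3 were lower and 8 had positive values. *Mthfd2*, the methylene tetrahydrofolate dehydrogenase of mitochondria, had 261, 536 and 391 normalized counts in cold Atf4WT and 141, 59.0 and 83.8 in cold Atf4AKO iWAT. The groups did not overlap, and the log2 fold change was −2.08 (SE 0.33, limma-adjusted p = 0.0648). At RT it had 146 to 182 against 87.6 to 145, a log2 fold change of −0.51 (limma-adjusted p = 1.00), and the difference between the conditions had a limma-adjusted p = 0.474. *Mthfd2* was placed with the genes that followed the lymphocyte score (r = 0.85), but its r was 0.43 over deviations and 0.00 over the RT libraries. With the score as a covariate its log2 fold change was −1.37 and passed the threshold (limma-adjusted p = 1.00), and over all alternatives it lay between −2.42 and −1.37. *Mthfd1l*, the mitochondrial formate-producing enzyme, had 53.4, 131 and 155 against 39.3, 12.5 and 27.9 (log2 fold change −2.05, limma-adjusted p = 0.0695, r = 0.81). *Shmt2*, the mitochondrial serine hydroxymethyltransferase, had 530, 654 and 734 against 422, 376 and 465 (log2 fold change −0.59, limma-adjusted p = 0.0695), close to the fold threshold, and it no longer passed without Atf4WT cold replicate 1 or 2 or Atf4AKO cold replicate 1. The cytosolic enzyme *Mthfd1* had a log2 fold change of 0.06, and the mitochondrial members *Mthfd2l* (0.16), *Mtfmt* (0.15), *Aldh1l2* (0.07) and *Slc25a32* (−0.02) did not pass either.

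Of 14 amino acid synthesis genes, *Aldh18a1*, the first enzyme of proline synthesis, was the lower one. It had 202, 243 and 336 normalized counts in cold Atf4WT and 170, 65.8 and 134 in cold Atf4AKO iWAT, without overlap (log2 fold change −1.15, limma-adjusted p = 0.141). *Asns* had 3855, 4361 and 3700 against 3231, 4575 and 3801 (log2 fold change −0.05), and the serine synthesis genes *Phgdh* (−0.13) and *Psat1* (0.07) did not pass. Of 11 amino acid transporters, *Slc7a1* (−0.99) for cationic and *Slc7a5* (−1.27) for large neutral amino acids were lower. *Slc7a5* had 107, 142 and 207 against 85.0, 32.9 and 77.4, without overlap, and followed the score (r = 0.83). *Slc1a4* (−0.56, limma-adjusted p = 0.374) fell short of the fold threshold, and was lower at RT (−0.64, limma-adjusted p = 1.00).

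No tRNA synthetase of 19 passed the fold threshold, but 5 had lower values with an unadjusted limma p under 0.05, as had 7.98% of all tested genes. *Yars* had 2066, 2016 and 1883 normalized counts in cold Atf4WT and 1571, 1568 and 1542 in cold Atf4AKO iWAT, a log2 fold change of −0.35 (SE 0.08, limma-adjusted p = 0.0714). *Cars* had 991, 937 and 827 against 693, 695 and 593 (log2 fold change −0.48). *Vars* (−0.54), *Aars* (−0.37) and *Tars* (−0.16) were the others, and in each of the 5 genes the cold groups did not overlap. This held for 16.5% of all tested genes, and taking genes by a small p favours it. At RT their log2 fold changes were between −0.21 and 0.03. *Vars* followed the score (r = 0.91), while *Yars* and *Aars* had r of −0.37 and −0.61 with it over deviations. Among the genes whose promoter stretch is printed above, *Yars*, *Tars*, *Slc1a4* and *Trib3* had an unadjusted p under 0.05 in the lower direction and *Asns* did not. These were chosen for display from 17 such genes, of which 6 were lower by this rule, as were 7 of the 38 list members whose window did not hold the letters.

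**Figure D3:**
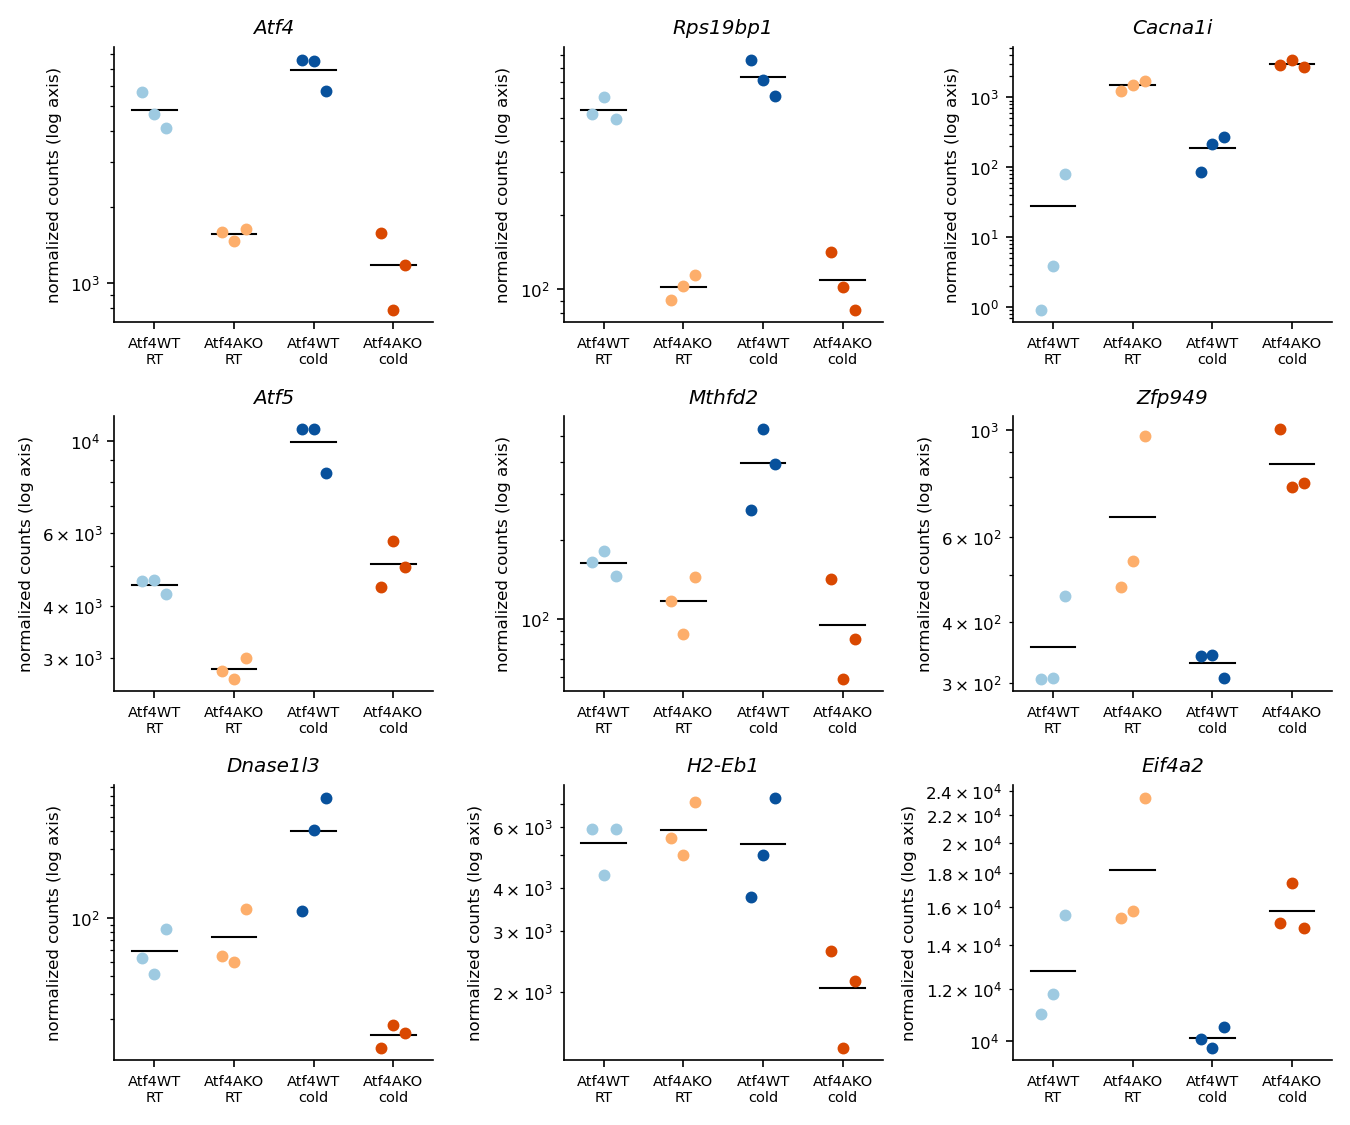
Normalized counts (log axis) of 9 genes in each library, with points for replicates 0, 1 and 2 from left to right and a line at the group mean. *Atf4*, *Rps19bp1* and *Atf5* are lower and *Cacna1i* and *Zfp949* higher in Atf4AKO in both conditions, *Mthfd2* differs mainly by high cold Atf4WT values, *H2-Eb1* by low cold Atf4AKO values and *Dnase1l3* by both, and *Eif4a2* is higher in cold Atf4AKO without overlap.

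The adipocyte programmes themselves did not pass. Of 15 thermogenic markers 0 passed in either direction, with a median log2 fold change of 0.25. *Ucp1*, the uncoupling protein gene, had 94771, 73632 and 74684 normalized counts in cold Atf4WT and 81033, 119558 and 90868 in cold Atf4AKO iWAT (log2 fold change 0.25, limma-adjusted p = 0.876). All 12 white adipocyte markers had positive values, between 0.10 and 0.26, and all 15 lipid synthesis genes between 0.05 and 0.51, and 0 of either list passed. Of 28 antioxidant genes 0 passed, with a median of 0.10. These medians lay above the 0.05 of all genes by less than the fold threshold. Of 20 cell cycle genes 7 passed the threshold in the lower direction, among them *Mki67* (−1.67), *Top2a* (−1.75) and *Mcm3* (−0.85). *Mki67* had 194, 190 and 384 against 285, 56.7 and 25.8, with overlap. The call was lost under 10 of 17 alternatives for *Mki67* and 9 of 17 for *Top2a*, among them edgeR and DESeq2, and both had positive values with the lymphocyte score as a covariate. Without Atf4AKO cold replicate 2, *Mki67* had −0.92 and *Top2a* −0.89.

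**Figure D4:**
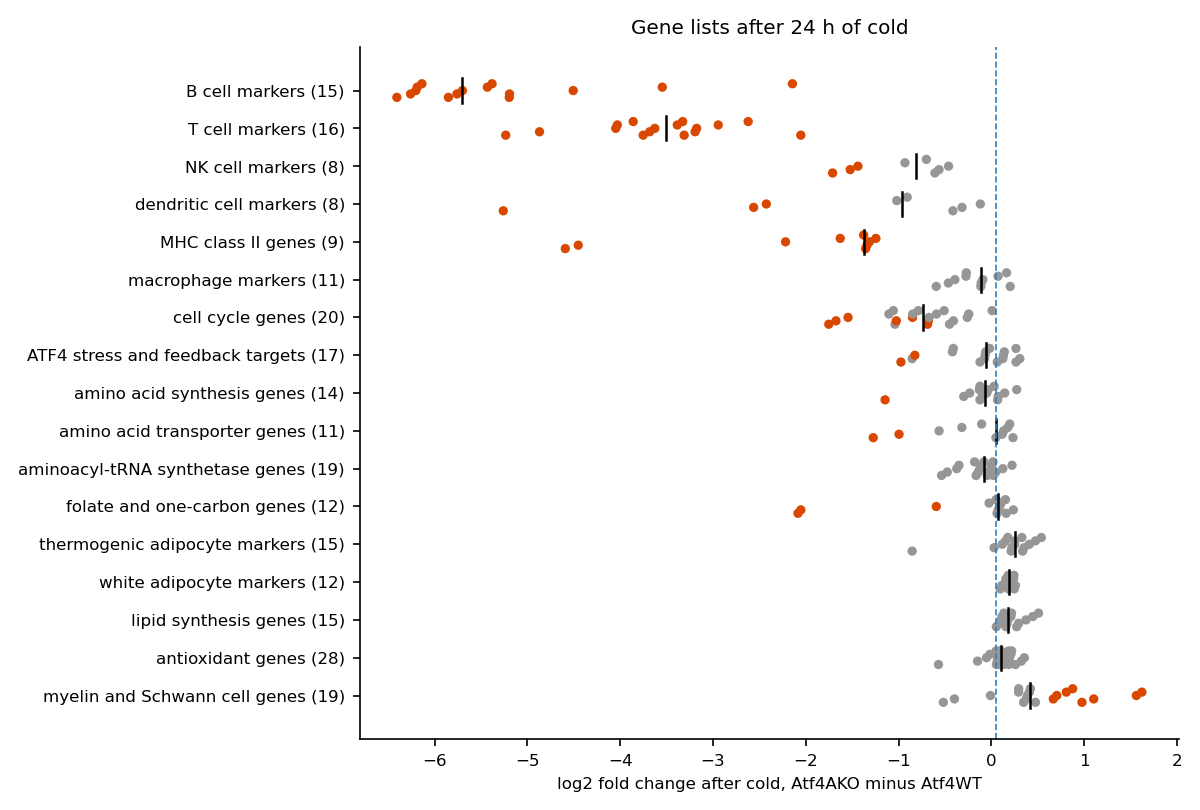
Log2 fold change after cold (Atf4AKO minus Atf4WT) of the members of 17 gene lists, with the number tested in brackets, genes past the threshold in orange, others in grey, a black tick at the list median and a dashed line at the median of all genes. B and T cell markers lie between −6.41 and −2.05, and the ATF4-related lists centre near 0 with a few lower members.

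Of the 48 higher genes, 39 were in between or unrelated. *Zfp949*, a zinc finger gene on chromosome 9, had 340, 342 and 307 normalized counts in cold Atf4WT and 1007, 762 and 778 in cold Atf4AKO iWAT (log2 fold change 1.35, SE 0.25, limma-adjusted p = 0.0648). It was higher at RT too (0.84, limma-adjusted p = 1.00). The translation initiation helicase gene *Eif4a2* had 10072, 9784 and 10496 against 15101, 17393 and 14842 (0.64, limma-adjusted p = 0.107), and at RT its value was 0.50 (limma-adjusted p = 1.00). *Sfrp5* (0.96), a secreted Wnt inhibitor, had 90.4, 69.7 and 56.5 against 104, 129 and 199 after cold, and at RT its log2 fold change of −0.57 did not pass. *Lhx6* (0.66), *Nap1l5* (0.59), *Vgll4* (0.78) and *Dcst1* (0.59) were the other named ones, beside *Cacna1i*. *Nap1l5* and *Dcst1* lay at the fold threshold, and their calls were lost under 8 and 10 of 17 alternatives. Of the 39 genes, 22 had a positive value at RT.

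Genes of myelinating Schwann cells, which wrap the larger axons of nerves, stood out among the higher genes. This list, too, was drawn up after its values were seen. Of 19 tested members 8 were higher and 0 lower, with a median log2 fold change of 0.42 after cold and 0.22 at RT. *Mal*, which encodes a membrane protein of myelin, had 188, 147 and 116 normalized counts in cold Atf4WT and 256, 239 and 326 in cold Atf4AKO iWAT (0.88, limma-adjusted p = 0.129). At RT it had 217 to 306 in Atf4WT and 268 to 484 in Atf4AKO iWAT, above the cold Atf4WT libraries in both genotypes. *Mal*, *Cldn19* (0.98), *Prx* (0.67) and *Fa2h* (0.81), also myelin genes, were the 4 named genes that mirrored the score, without overlap between the cold groups. *Gldn* (1.62) and *Pmp2* (1.56) were higher as well, both with few counts. *Gldn* averaged 18.3 normalized counts over the cold libraries. *Pmp2* had 4.11, 5.28 and 1.88 in cold Atf4WT and 30.8, 6.80 and 8.60 in cold Atf4AKO iWAT. Leaving out 1 library gave 0.94 to 1.95 for *Pmp2*, and its call was lost under 3 of 16 alternatives. For *Prx* and *Fa2h* the call was lost without Atf4WT cold replicate 2 or Atf4AKO cold replicate 2, and for *Prx* also without Atf4WT cold replicate 1. With the lymphocyte score as a covariate *Prx* and *Fa2h* had negative values, *Mal* had 0.058 and *Cldn19* 0.050, and none of these passed. *Gldn* (0.87) and *Pmp2* (1.59) did not pass in that fit either. The part of the score in these differences was not tested otherwise.

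Only 10 genes passed the threshold both after cold and at RT, 8 of them in the same direction. Among these were *Atf4*, *Rps19bp1*, *Atf5*, *Cacna1i* and *Zfp949*, with *Xlr3b* (−1.89 after cold and −1.26 at RT) and *Psd2* (−1.48 and −1.10). *Fasl*, the death ligand of cytotoxic cells, had 13.4, 16.9 and 15.1 normalized counts in cold Atf4WT and 7.44, 5.67 and 2.15 in cold Atf4AKO iWAT, a log2 fold change of −1.51. At RT it was higher in Atf4AKO (1.25), and *Gcsam*, a germinal centre gene, turned in the same way (−1.20 and 0.90). The difference between the conditions had a limma-adjusted p = 0.474 for both genes.

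**Figure D5:**
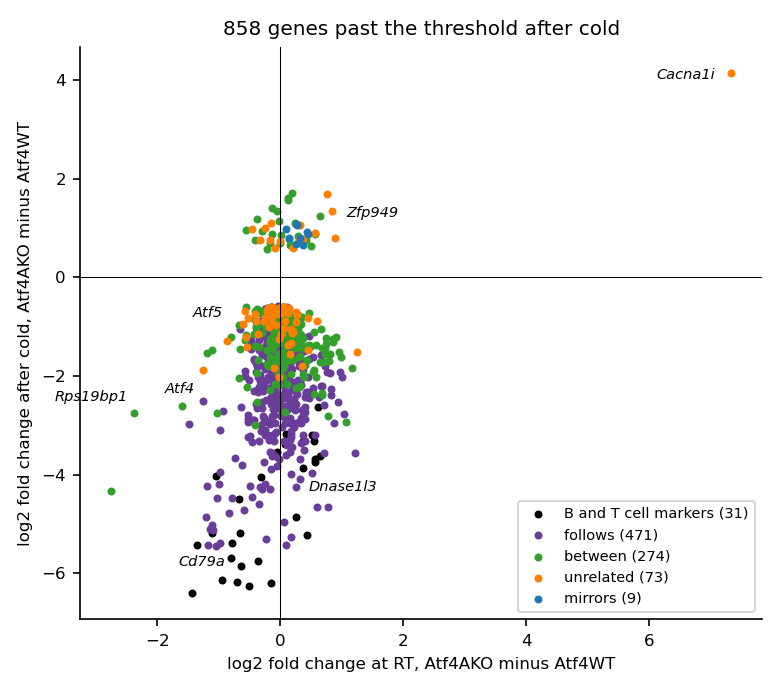
Log2 fold change after cold (y axis) against that at RT (x axis), both Atf4AKO minus Atf4WT, for the 858 genes past the threshold after cold, coloured by their relation to the lymphocyte score over the 12 libraries. Most points spread along the y axis near 0 on the x axis, while *Atf4*, *Rps19bp1*, *Cacna1i* and *Zfp949* lie away from it in the same direction on both axes.

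With the lymphocyte score as a covariate in the model, 114 genes were lower and 84 higher after cold, of 13404 tested. In this fit the slope on the score comes from the spread of the libraries within the 4 groups. The score did not overlap between the cold groups, and many standard errors widened, from 0.22 to 0.42 for *Atf4* and from 0.12 to 0.19 for *Atf5*. Whether a lost call reflects the score or this loss of precision was not tested. Of the 858 genes 16 also passed in this fit, among them *Atf4* (−2.69), *Rps19bp1* (−2.999), *Atf5* (−1.27), *Dnase1l3* (−2.28), *Mthfd2* (−1.37), *Hhex* (−1.16), *Zfp949* (1.91), *Eif4a2* (0.99) and *Cacna1i* (8.53). The value for *Cacna1i* carries that slope across the gap in the score between the cold groups, and without the covariate it was 4.15. The nuclear corepressor gene *Nrip1* (1.06) was another, which had 1668, 1706 and 2254 normalized counts in cold Atf4WT and 4169, 2016 and 3817 in cold Atf4AKO iWAT, with overlap. None of these named genes had a limma-adjusted p under 0.05 in this fit. It was 0.150 for *Rps19bp1*, 0.183 for *Cacna1i*, 0.239 for *Atf4* and *Atf5*, and 0.9996 for the rest. The MHC class II gene *H2-Eb1* had −0.41 (limma-adjusted p = 1.00) and *Aldh18a1* −0.08 in this fit. None of the 31 lymphocyte markers passed, but the score is their own mean, so this outcome was built into the fit. *Fgf21* (−2.56), *Aars* (−0.72), *Ddit3* (−0.69) and *Phgdh* (−0.59) passed as lower in this fit and had not passed without the covariate. Their limma-adjusted p in this fit was 0.9996. In the 5 ATF4-related lists together, 7 members were lower in this fit, against 8 without the covariate.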

How the data were processed

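The deposited values are a normalized signal, namely counted reads scaled with one DESeq2 size factor for each library. Per the labels and the study's methods, the authors mapped reads to mm10 with STAR and counted them with featureCounts. Versions and the strand setting of the counting are not given in the sources used here. Each value was a whole multiple of the library's smallest value, and dividing by it gave whole reads to within 0.000313. No column of values was left out.

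limma 3.58.1 (R 4.3.3; lmFit, eBayes with a trend) was fitted to log2(normalized count + 1) of 13404 genes in all 12 libraries with 4 group means and no covariate, so that a fold change understates the change of low genes. Genes were called at an unadjusted p under 0.05 with over 1.5-fold change, as in the study's methods, with Benjamini-Hochberg adjusted p beside them. The study used DESeq2 for its test, which was run here as an alternative (DESeq2 1.42.0, beside edgeR 4.0.16) on the recovered reads. Replicates are separate biological samples per the labels. Each group had 3 libraries of 25719476 to 29105147 reads on listed genes.

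Of the genes that followed the lymphocyte score, the 8 lower ones with the smallest p were named. Of the genes in between and unrelated 12 lower and up to 12 higher, and of the mirroring genes up to 6 higher ones were named, with a mean of at least 50 in the cold libraries and no overlap between the cold groups. All genes with an adjusted p under 0.05 and genes of the lists were named too. The members, lists and this rule were chosen with earlier results of these data known. A few genes that the rule picked and the other promoter matches are not reported here. The scripts were tested on simulated data. Gene positions came from GENCODE M21 (mm10). Python 3.11.15, pandas 2.3.3, numpy 2.4.6 and matplotlib 3.10.9 were used for the remaining steps. Alternatives tried were a pseudocount of 0.5 or 5, no filter and a mean of at least 50, the cold groups alone, libraries rescaled to the same 75th percentile, the replicate number as a block, the score as a covariate, an adjusted p threshold, other limits on r, and leaving out each cold library.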

Additional observations from a re-analysis of the deposited data

How the results depend on the processing

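How far depth or the 3 libraries per group limit these counts was not tested. The pseudocounts, the absence of a filter, the cold groups alone, the rescaling, edgeR and DESeq2 left each count after cold within 1.5 times its value, with 708 to 891 lower and 40 to 67 higher genes. For RT, edgeR gave 138 and DESeq2 101 genes in place of 62. With adjusted p under 0.05 at any fold, limma gave 4, edgeR 3 and DESeq2 590 genes after cold.

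With a mean of at least 50, the higher genes were 20, the lower and higher genes that did not follow the score 189 and 15, and the RT genes 29. With an adjusted p under 0.05, 4 genes were lower and 0 higher, of which 1 followed the score and 3 lower and 0 higher ones did not. In that setting the RT genes were 1, the genes differing between cold and RT 0 (621 before), the ATF4-related members lower 1 and the markers 0. With the score as a covariate, 114 genes were lower and 84 higher, 2 lower ones followed the score and 112 lower and 84 higher ones did not, and 294 differed between cold and RT. In that fit 0 markers passed, which is built in, since the score is the mean of the markers. With limits on r of 0.7 and 0.4, 194 lower genes did not follow the score, and with 0.9 and 0.6 there were 233 that did and 546 that did not. By deviations these counts were 218 and 561, and over the RT libraries 242 and 532. The cause of these moves was not tested, apart from the fewer genes tested under the stricter filter.

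Leaving out each cold library in turn gave 539 to 999 lower and 34 to 110 higher genes. Of the lower genes 286 to 521 followed the score and 186 to 460 did not, and of the higher genes 28 to 84 did not. Genes differing between cold and RT were 409 to 868. The lower counts, also for the genes that followed the score, and the count of differing genes were smallest without Atf4WT cold replicate 2. Without Atf4AKO cold replicate 1, the lower genes that did not follow the score were 186 and the higher ones 84, and without Atf4WT cold replicate 0 the latter were 78.

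The replicate numbers are shared between groups, but the deviations of same-numbered cold libraries correlated at −0.145, 0.389 and 0.305, so the numbers were not taken to pair them. A replicate block gave 872 lower and 54 higher genes, 474 lower genes that followed the score, 367 lower and 45 higher ones that did not, 69 genes at RT and 744 differing between cold and RT.

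For the 89 genes followed, 1272 of 1500 values under the alternatives kept direction and call, 189 lost the call, 11 gained it and 28 changed sign. With the score as a covariate the log2 fold change was −0.43 for *Prx*, −0.23 for *Fa2h*, 0.087 for *Slc7a1*, −0.36 for *Mthfd1* and *Psat1*, 0.017 for *Vars*, 1.25 for *Tnf* and 0.058 for *Cxcl13*. It was 0.29 for *Cd79a*, 0.076 for *Lck*, −1.05 for *Ucp1*, 0.34 for *Mki67*, 0.20 for *Ciita*, 0.41 for *Eomes*, 0.053 for *Nkg7* and 0.46 for *Top2a*. *Cd79a* and *Lck* are themselves part of the score. Leaving out 1 library gave −0.33 to 0.079 for *Ddit3*, −1.02 to 0.014 for *Chac1*, −0.23 to 0.068 for *Nupr1*, −0.18 to 0.074 for *Asns*, −0.00511 to 0.16 for *Psat1* and −0.51 to 1.10 for *Adgre1*, none of which passed the threshold with all libraries.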
